A study of Mus musculus with 12 samples.

Results

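The fibroblast growth factor (FGF) genes described here are the ligands Fgf8 and Fgf10, the receptors Fgfr1, Fgfr2 and Fgfr3, and the feedback inhibitors Spry1, Spry2, Spry4 and Dusp6. They were chosen by name, and each was read from the probe with the highest mean over all arrays among the probes that carry its symbol in the platform annotation. Of the 9 genes, 8 were measured, out of 19057 genes in all, and Spry1 was not analysed here because no probe is listed under that symbol. The atrioventricular canal (AVC), the segment of the embryonic heart in which the valve cushions form, and the primary ventricle (labelled LV) were dissected from mouse embryos on embryonic days 9 (E9) and 10 (E10), and their total RNA was profiled on Mouse WG-6 v2 BeadChips from Illumina. There were 3 arrays for each tissue and age, which gives 4 groups, AVC E9 and LV E9, and AVC E10 and LV E10. No treatment or engineered allele is named for any group, and the sources used here do not state strain, sex, pooling of embryos or how replicates were related. The p-values therefore measure the spread between these arrays, which may be technical in part.

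FGF ligands bind receptor tyrosine kinases on the cell surface together with heparan sulphate chains, and the activated receptor signals through the Ras and ERK kinases. ERK signalling switches on Etv transcription factors of the ETS family and, with them, inhibitors such as the Sprouty proteins and the ERK phosphatase Dusp6, so the pathway limits itself. In the developing heart, FGF8 and FGF10 are best known from the second heart field, the progenitor population that adds cells to both ends of the heart tube.

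Of the measured genes of the list, only the feedback gene Dusp6 and Fgfr2, the receptor that differed between AVC and LV at E10, were detected on all 12 arrays. Their promoters are therefore shown. Each is the 250 bases upstream of the gene's start in RefSeq, build GRCm38.p6. They lie at chr10:99262981-99263230 on the plus strand for Dusp6 and at chr7:130266809-130267058 on the minus strand for Fgfr2. Capitals mark the core of the sequence bound by ETS factors, CGGAA or its reverse complement TTCCG.
Dusp6 promoter: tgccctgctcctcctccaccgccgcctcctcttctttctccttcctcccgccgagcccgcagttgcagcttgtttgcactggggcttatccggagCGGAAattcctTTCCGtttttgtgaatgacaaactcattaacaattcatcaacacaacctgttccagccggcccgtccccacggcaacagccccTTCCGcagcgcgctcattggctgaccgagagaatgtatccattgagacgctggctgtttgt
Fgfr2 promoter: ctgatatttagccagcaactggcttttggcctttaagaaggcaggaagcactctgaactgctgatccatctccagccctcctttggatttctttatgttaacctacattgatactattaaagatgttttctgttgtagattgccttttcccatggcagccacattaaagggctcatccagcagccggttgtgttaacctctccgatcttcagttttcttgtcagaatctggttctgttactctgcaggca
The core was found 3 times upstream of Dusp6, with its first base at -155, -144 and -61 relative to the start, and 0 times upstream of Fgfr2. Both strands were searched, and 25.2% of 32851 promoters of the same length (8275) held the core at least once. The longer form CCGGAAGT, which contains the core, was in 2.88% of promoters and in neither printed sequence. Of the other genes looked up, Fgf10, Fgfr3, Spry1, Spry2, Flrt3, Dusp7 and Etv1 had 0 cores in this window, the receptor gene Fgfrl1 had the longer form at -48 and Flrt2 had the core at -238 and -150. These matches describe the letters only.

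Intensities below are the deposited values on a linear scale, in arbitrary units, and a gene counted as above background where its value exceeded a limit set per array by how far the lowest value lay under 0, 22.4 to 29.6. The mean intensity was 386 on every array, and 36.7% to 41.0% of the probes were above background. Differences are in log2 units with the standard error (SE) of a limma fit of all 12 arrays, and a gene was called at a Benjamini-Hochberg adjusted p under 0.05 over all genes. Markers of AVC myocardium gave a summed intensity of 1939 to 3152 in AVC E9 against 229 to 497 in LV E9, and of 1470 to 2821 in AVC E10 against 124 to 308 in LV E10, so the AVC and LV labels were borne out by these genes. For 3 arrays the most similar array belonged to another group, namely LV E10 replicate 1, AVC E9 replicate 2 and AVC E10 replicate 1. The first of these stood farthest from its own group, with a mean correlation across genes of 0.933. Its 7 erythroid (red blood cell) genes summed to 136830, against 102742 and 86209 on LV E10 replicates 2 and 3. Its endoderm epithelium genes summed to 2084 against 900 and 964, and its epicardium genes to 3217 against 5510 and 6905. Its AVC myocardium genes summed to 308 against 128 and 124. Its second heart field and outflow tract genes summed to 135 against 29.5 and 30.7, with 1, 0 and 0 of them above background on replicates 1, 2 and 3. The part of these cells in its values was not tested. For Fgf10, Dusp6 and Spry4, a call or direction that turned without this array is given with and without it. Turns of other genes are given only in part.

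Over the 8 measured genes, 0 passed the limma test between AVC and LV at E9 (2 at an unadjusted p under 0.05), against 1.02% of all genes called. At E10, Fgfr2 alone was called, against 2.30% of all genes. Between E9 and E10, 0 of the 8 were called in the AVC (1 at an unadjusted p under 0.05), against 0.551% of all genes. In the LV, Fgf8 alone was called, against 2.37% of all genes. The tissue by age interaction, which tests whether the AVC against LV difference changed between the ages, called 0 of the 8 (0 at an unadjusted p under 0.05), against 0.0315% of all genes. These shares of all genes are at the adjusted threshold. No share at an unadjusted p under 0.05 is given, so no excess can be read from the unadjusted counts here or below. Groups whose arrays did not overlap were found for 2 genes at E9 (Fgfr2 and Dusp6), 1 at E10 (Fgfr2), 1 by age in the AVC (Fgf8) and 3 by age in the LV (Fgf8, Fgf10 and Dusp6), where 17.1%, 15.8%, 16.2% and 20.4% of all genes did not overlap. The median log2 difference over the 8 genes was 0.49 at E9 and 1.47 at E10 for AVC against LV, and 0.03 in the AVC and -0.56 in the LV for E10 against E9. The corresponding medians over all genes were 0.00, 0.07, 0.00 and 0.00. The median of 1.47 depends on setting values under 1 to 1. It lies between Fgf10 (1.71) and Fgf8 (1.23), which was above background on no E10 array. Fgfr1 (2.18) and Fgfr3 (1.75), which lie above it, were near the detection limit. Of the 8 genes, 6 had values under the background limit on some arrays. With values under 25 set to 25 the medians of the 8 were 0.00, 0.025, 0.00 and 0.00, against 0.00 over all genes in each contrast. That setting makes most values of the dim genes equal, which holds the median near 0. Neither set of medians can therefore decide whether the group as a whole shifted. Most of the 8 genes were dim, and only Fgfr2 and Dusp6 were above background on all 12 arrays.

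**Figure D1:**
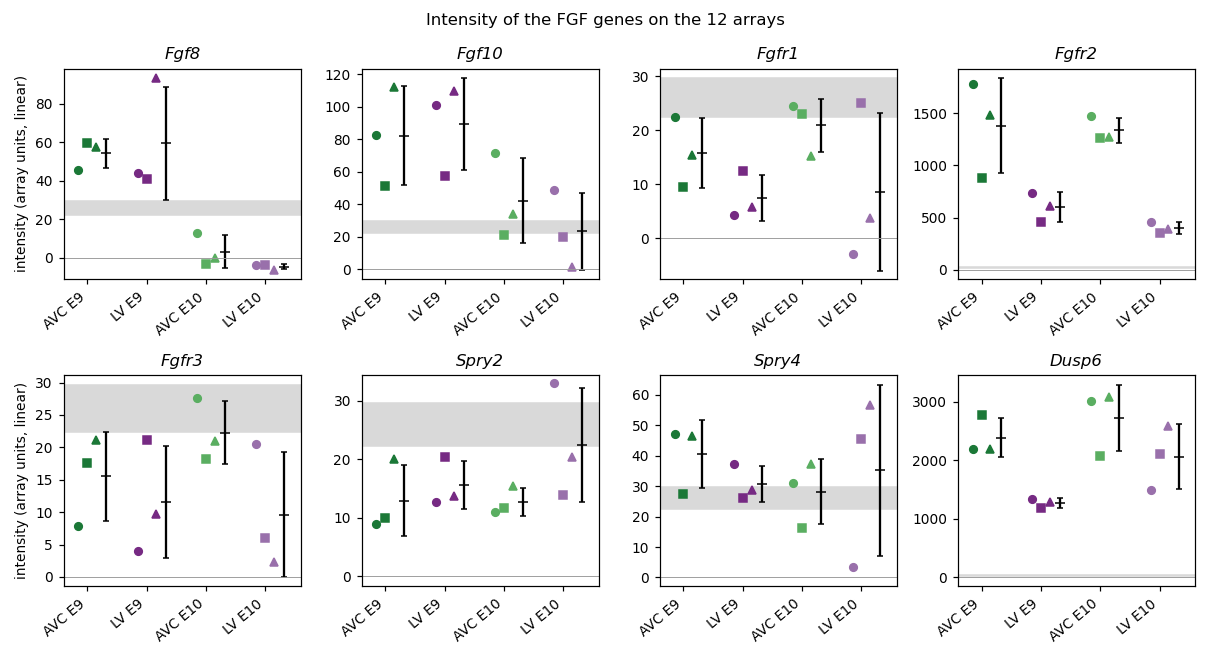
Intensity (linear scale, arbitrary units) of the 8 measured FGF genes on each array by tissue and age, each gene in its own panel, with replicates 1, 2 and 3 as circle, square and triangle, the group mean and SD (n = 3) in black, and the range of array background limits (22.4 to 29.6) as a grey band. Fgfr2 and Dusp6 lie far above the band on all 12 arrays, Fgf8 lies above it on the 6 E9 arrays only, and Fgfr1, Fgfr3 and Spry2 lie in or below it on most arrays.

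The ligand Fgf8 was detected at E9 in both tissues and at E10 in neither. In AVC E9 its intensity was 45.6, 59.4 and 57.5 on replicates 1 to 3, and in LV E9 it was 44.1, 40.7 and 93.2. In AVC E10 the values were -3.03 to 12.9 and in LV E10 they were -6.11 to -3.76, below the background limit on all 6 arrays. All 6 E9 arrays were thus above background and no E10 array was, and within each tissue the ages did not overlap. The mean in the LV was 59.4 ± 29.4 at E9 and -4.58 ± 1.32 at E10 (SD, n = 3). This makes Fgf8 at least 2.20-fold higher at E9. The limma call (adjusted p = 0.0255) tests the log2 difference of -5.78 with values under 1 set to 1, and not this bound. The bound sets the E9 mean against the lowest signal that counted as above background on each E10 array, because a value under that limit has no measured level. In the AVC the mean was 54.2 ± 7.50 at E9 and 3.29 ± 8.46 at E10, at least 2.19-fold higher at E9. The log2 difference there, -4.52 with values under 1 set to 1, did not pass the threshold (limma, adjusted p = 0.0713).

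Whether the age effect on Fgf8 differed between the tissues could not be tested, since neither E10 group had a measured level. At E9 the AVC and LV arrays overlapped, with a log2 difference of -0.03 ± 0.89 SE (95% interval from -2.07 up to 1.997). The LV call was lost without any one of the LV E9 arrays (adjusted p = 0.0575, 0.0639 and 0.0929 without replicates 1, 2 and 3), without LV E10 replicate 2 or 3 (0.0979 and 0.0713), and with values under 25 set to 25 (0.0997). In the AVC the contrast passed without AVC E10 replicate 1, the E10 array with the highest value (adjusted p = 2.3e-04). All remaining E10 values lay under 1 and were set to 1, so they had no spread, and the SE fell from 0.89 to 0.33. That p rests on the floor and adds no support. A second Fgf8 probe was not above background on any array, so the pattern rests on a single probe.

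Fgf10, a ligand best known for signalling from mesenchyme to neighbouring epithelium, was also detected on every E9 array. Its intensity was 82.7, 51.4 and 112 in AVC E9 and 101, 57.3 and 109.7 in LV E9, and AVC and LV overlapped at that age. In AVC E10 it was 71.7, 21.1 and 34.1, and in LV E10 it was 48.8, 19.7 and 1.54, above background on 2 and 1 of the 3 arrays. All LV E10 values were lower than all LV E9 values, while the AVC ages overlapped. The means were 82.2 ± 30.4, 89.4 ± 28.1, 42.3 ± 26.3 and 23.4 ± 23.8 in AVC E9, LV E9, AVC E10 and then LV E10 (SD, n = 3). The log2 difference between E10 and E9 in the LV was -2.92 ± 1.13 SE, with a 95% interval of -5.49 to -0.34, and did not pass the threshold (limma, adjusted p = 0.198). Its size depended on single arrays near the floor. Without LV E10 replicate 1, the highest of its group, it was -3.97 and passed (adjusted p = 0.0445), and without LV E10 replicate 3, the lowest, it was -1.47 (adjusted p = 0.339). It was -1.46 with values under 25 set to 25 and -0.96 with log2(value + 50). A second probe was above background on all 3 LV E9 arrays and 1 LV E10 array, and the third was above background on 0 arrays. In the AVC the difference was -1.07 ± 1.13 SE (adjusted p = 0.834).

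RNA from other cells in the dissected pieces was measured beside these ligands. In bulk samples fewer cells of a type and less RNA per cell cannot be told apart. The second heart field and outflow tract list, of which 7 genes were measured and 4 were above background on any array, summed to 221 to 402 in AVC E9, 74.0 to 95.1 in LV E9, 90.7 to 384 in AVC E10 and 29.5 to 135 in LV E10, and 0 of the 7 were called by age in either tissue. Its transcription factor Isl1 had mean intensities of 237, 44.3, 157 and 20.8 in that order of groups, while Osr1 had 28.1, 21.0, 69.3 and 21.8. For E10 against E9, 2 of the 7 had a log2 difference above 0 in the AVC and 3 in the LV. Hoxb1 was above background on 0 arrays. The 8 endoderm epithelium genes summed to 3052 to 5571 in AVC E9 and 957 to 2585 in AVC E10, and to 1583 to 3520 in LV E9 and 900.1 to 2084 in LV E10. That sum was carried by keratins and junction genes, since Epcam, Foxa1 and Foxa2 were above background on 0 arrays, and 0 of the 8 were called by age. The 7 epicardium and proepicardium genes summed to 736 to 1044 in AVC E9 and 5204 to 5664 in AVC E10, and to 372 to 993 in LV E9 and 3217 to 6905 in LV E10. Of these 7, 1 was called higher at E10 in the AVC and 2 in the LV, beside 0.430% and 1.37% of all genes. In either direction, 0.551% of all genes were called by age in the AVC and 2.37% in the LV. The part of these cells in the Fgf8 and Fgf10 values was not tested.

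**Figure D2:**
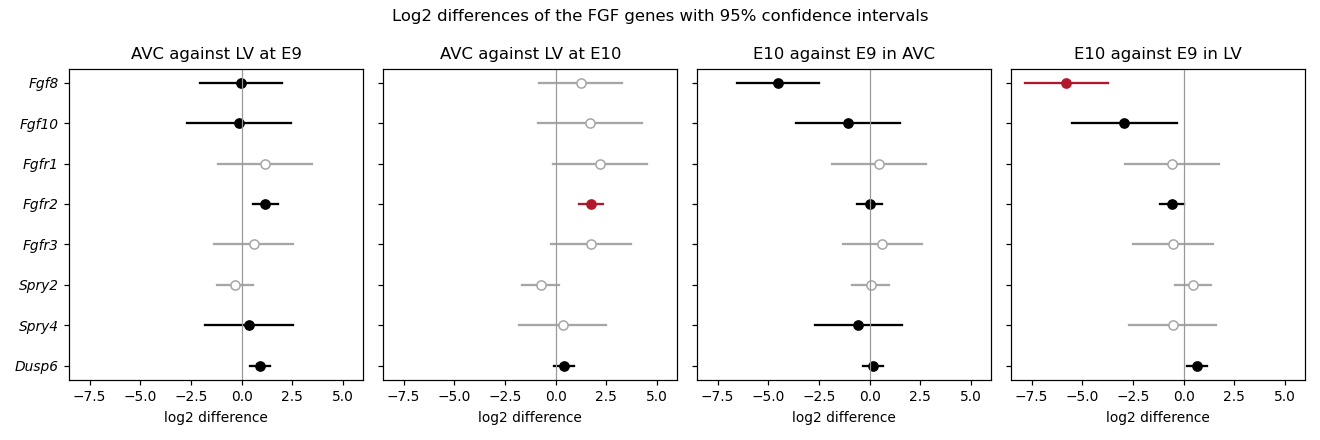
Log2 difference and 95% interval of each of the 8 measured FGF genes for AVC against LV at E9 and E10 and for E10 against E9 in the AVC and LV (limma fit of all 12 arrays), with called genes in red, genes detected on each of the 3 arrays in one or both groups compared in black, and the rest as open grey symbols. Fgfr2 at E10 (1.75) and Fgf8 by age in the LV (-5.78, a fitted value that depends on the floor of 1) are the called differences, and the intervals of the dim genes span several log2 units.

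Among the receptors, Fgfr2 was above background on all 12 arrays, and it was higher in the AVC than in the LV at E10. Its intensity was 1775, 879.8 and 1483 in AVC E9 and 737, 455 and 611 in LV E9. At E10 it was 1475, 1261 and 1269 in the AVC and 459.7, 351 and 387 in the LV. Every AVC array was above every LV array at both ages, and AVC E9 replicate 2 was the AVC array closest to the LV. The means were 1335 ± 121 and 399 ± 55.4 (SD, n = 3) at E10, where Fgfr2 was 3.36-fold higher in the AVC (log2 difference 1.75 ± 0.27 SE, 95% interval 1.13 to 2.36, limma, adjusted p = 0.0193). At E9 the means were 1379 ± 456 and 601 ± 142, a 2.24-fold difference (1.17 ± 0.27 SE, 95% interval 0.55 to 1.78) that did not pass the threshold (adjusted p = 0.0985).

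The E9 and E10 differences of Fgfr2 were not shown to differ from each other (interaction 0.58 ± 0.38 SE, adjusted p = 0.937). Between the ages Fgfr2 differed by 0.01 ± 0.27 SE in the AVC (adjusted p = 1) and by -0.57 ± 0.27 SE in the LV (adjusted p = 0.290). The E9 contrast passed without AVC E9 replicate 2, at 1.46 with an adjusted p of 0.0390. The E10 call was lost without any one AVC E10 array (adjusted p = 0.0525, 0.0598 and 0.0746 without replicates 1, 2 and 3), without LV E10 replicate 2 or 3 (0.0693 and 0.0502), and when all 4 Fgfr2 probes were averaged (1.43, adjusted p = 0.205). One of those 4 probes was above background on 0 arrays. The other two probes were above background on 7 and 5 arrays and on no LV E10 array, so no size is given for their difference at E10. One was above background on all 3 AVC arrays at both ages and on 1 LV E9 array, and the other on 3 AVC E9 arrays, 1 AVC E10 array and 1 LV E9 array.

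Cell-type markers also differed between the tissues in which Fgfr2 differed. The 7 cushion mesenchyme genes summed to 3718 to 5456 in AVC E9 against 1287 to 1603 in LV E9, and to 6346 to 7403 in AVC E10 against 1140 to 2189 in LV E10. At each age 3 of the 7 were called higher in the AVC, beside 0.855% of all genes at E9 and 2.06% at E10. Postn, a late marker of that list, was above background on 2 arrays. Of 7 chamber myocardium genes, 1 was called lower in the AVC at E9 and 3 at E10, beside 32 and 46 of all 19057 genes. The summed endocardium and endothelium markers overlapped between the tissues, at 2676 to 3870 in AVC E9 and 3346 to 3817 in LV E9, and at 4873 to 6278 in AVC E10 and 5148 to 6728 in LV E10. Single members went both ways, and 1 of the 8, Nfatc1, was called higher in the AVC at E10 (544 against 212), while Emcn was 1488 against 3103. The part of these cell types in the Fgfr2 difference was not tested.

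Fgfr1 and Fgfr3, the other receptors of the list, were near the detection limit. Fgfr1 was above background on 2 of the 12 arrays, with values of 9.58 to 22.4 in AVC E9, 4.29 to 12.4 in LV E9, 15.3 to 24.4 in AVC E10 and -2.95 to 24.97 in LV E10. Fgfr3 was above background on 1 array, and its values ran from 2.26 to 27.7 over all arrays. Neither gene was called between AVC and LV at E9 or E10 (limma, adjusted p = 0.789 and 0.402 for Fgfr1, and 0.938 and 0.430 for Fgfr3), and no size is given because most values had no measured level. The tissues overlapped in all of these contrasts, and no difference was detectable for these receptors at this signal.

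Of the feedback inhibitors, Dusp6 was above background on all 12 arrays, with its lowest values in LV E9. Its intensity was 2193, 2771 and 2194 in AVC E9 and 1336, 1176 and 1289 in LV E9. At E10 it was 3023, 2081 and 3079.8 in the AVC and 1491, 2100.5 and 2592 in the LV. All LV E9 values were lower than those of every other array, and the tissues overlapped at E10. The means were 2386 ± 333, 1267 ± 82.4, 2728 ± 561 and 2061 ± 552 in AVC E9, LV E9, AVC E10 and then LV E10 (SD, n = 3). The ratio of AVC to LV at E9 was 1.87 (0.91 ± 0.22 SE, 95% interval 0.40 to 1.41) and that of E10 to E9 in the LV was 1.59 (0.67 ± 0.22 SE, 95% interval 0.16 to 1.17), and neither passed the threshold (limma, adjusted p = 0.119 and 0.148).

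The remaining Dusp6 differences were 0.42 ± 0.22 SE between AVC and LV at E10 (adjusted p = 0.480; 0.20 without LV E10 replicate 1) and 0.18 ± 0.22 SE between the ages in the AVC (adjusted p = 0.889). The interaction was -0.49 ± 0.31 SE (adjusted p = 0.937). Without LV E10 replicate 1, which had the lowest Dusp6 value of its group, the E9 contrast passed (adjusted p = 0.0490) and so did the age contrast in the LV (0.88, adjusted p = 0.0273). A second probe above background on all 12 arrays gave 1.18 for AVC against LV at E9 and 0.89 for age in the LV. The third was above background on 2 arrays of AVC E9, 0 of LV E9, 3 of AVC E10 and 1 of LV E10, so it gave no measured level in LV E9.

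Spry4, which inhibits signalling downstream of the receptors, was above background on 9 arrays but close to the limit. Its values were 47.2, 27.5 and 46.6 in AVC E9, 37.4, 26.1 and 28.7 in LV E9, 30.9, 16.4 and 37.3 in AVC E10 and 3.50, 45.5 and 56.8 in LV E10. The groups overlapped in each contrast, and the LV E10 arrays spanned the whole range of the gene because replicate 1 lay far below the other two. The AVC against LV difference was 0.37 ± 0.94 SE at E9 (limma, adjusted p = 1). At E10 it had no settled direction, at 0.35 ± 0.94 SE with all arrays and -0.93 ± 0.39 SE without LV E10 replicate 1 (adjusted p = 1 and 0.268), while the mean intensities were 28.2 in the AVC and 35.3 in the LV. The age difference in the LV turned in the same way, from -0.54 with all arrays to 0.74 without that replicate. Spry2, a related inhibitor, was above background on 1 array, LV E10 replicate 1 at 33.0, with all values between 8.94 and 33.0. It was not called between AVC and LV at E9 or E10 (adjusted p = 0.898 and 0.480). No difference in Spry2 or Spry4 was detectable at this signal.

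Other genes of the pathway came from a list of 74, of which 67 were measured, 46 were above background on at least 1 array and 31 on all 12. For AVC against LV, 3 of the 67 were called at E9 and 5 at E10, all higher in the AVC, beside 0.855% and 2.06% of all genes called higher. For E10 against E9, 1 was called higher in the AVC, and 2 were called higher and 1 lower in the LV, beside 0.430%, 1.37% and 1% of all genes. The interaction called 0 of the 67 (6 at an unadjusted p under 0.05). The median log2 differences over the 67 were 0.00 and 0.22 for AVC against LV at E9 and E10, and 0.13 and 0.00 for age in the AVC and LV.

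The 14 other feedback and target genes held all 3 calls at E9. Dusp4, a nuclear ERK phosphatase, was 982, 1134 and 1304 in AVC E9 and 251, 244 and 229 in LV E9, a 4.70-fold difference (2.23 ± 0.30 SE, limma, adjusted p = 0.0187). At E10 it was 1162, 431 and 639.7 in the AVC and 369, 388 and 418 in the LV (0.81 ± 0.30 SE, adjusted p = 0.257), and the change in the difference was not called (interaction -1.43 ± 0.43 SE, adjusted p = 0.726). The AVC arrays were higher than the LV arrays at both ages, and at E10 the AVC values spread widely. Etv1, an ETS transcription factor switched on by ERK signalling, was 467, 376 and 304 in AVC E9 and 184, 89.9 and 123 in LV E9, a 2.98-fold difference (1.57 ± 0.27 SE, adjusted p = 0.0366). Spry3 was also called at E9 (adjusted p = 0.0339), but it was above background on 1 AVC E9 and 0 LV E9 arrays, with values of 49.8, 19.2 and 17.7 against 5.07, 2.11 and 2.63, so no size is given for its difference. It falls outside the rule for naming genes and is named after its values were seen. Leaving out each of the 12 arrays in turn, the Dusp4 call was lost in 5 cases, namely without any one AVC E9 array and without LV E9 replicate 2 or 3 (adjusted p up to 0.0702, without the last). The Etv1 and Spry3 calls were each lost in 10 of the 12 cases (adjusted p up to 0.124 without AVC E9 replicate 1, and up to 0.122 without LV E9 replicate 2).

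The relatives Etv4 and Etv5 and the early response gene Egr1, named for their known place among targets of the pathway and after their values were seen, did not pass the threshold. Etv4 was 74.1, 116 and 56.4 in AVC E9 and 31.3, 25.2 and 13.8 in LV E9, where it was above background on 1 array (1.83 ± 0.53 SE, limma, adjusted p = 0.185). At E10 it was 153, 95.7 and 136 in the AVC and 39.0, 138 and 116 in the LV. Etv4, like Dusp6, was lower in all LV E9 arrays than in any other, with LV E10 replicate 1 the next lowest. Etv5 was 170.1, 132 and 225 in AVC E9 and 84.6, 55.6 and 85.6 in LV E9 (1.22 ± 0.29 SE, adjusted p = 0.114), and its difference at E10 was 0.98 ± 0.29 SE (adjusted p = 0.154). Egr1 was 7896 on LV E10 replicate 1 against 1096 and 2543 on the other LV E10 arrays. Within its group that replicate had the lowest Dusp6, Etv4, Spry4, Dusp4 (369), Dusp5 (79.9), Etv1 (234) and Etv5 (58.9) values. It had the highest values not only of Egr1 but also of Ier3 (1139), Il17rd (160.3), Spry2 (33.0) and Spry3 (31.0).

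**Figure D3:**
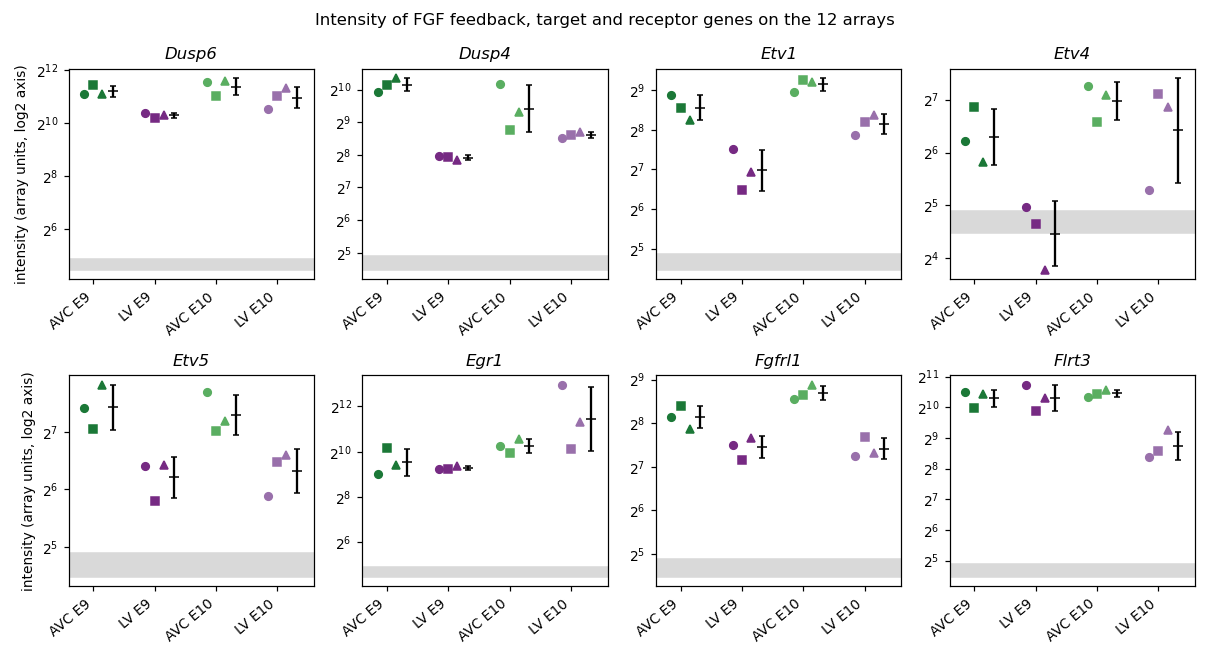
Intensity on a log2 axis of Dusp6, Dusp4, Etv1, Etv4, Etv5, Egr1, Fgfrl1 and Flrt3 on each array by tissue and age, with the geometric mean and the SD of the log2 values (n = 3) and the background limits as a grey band. Dusp6, Dusp4, Etv1 and Etv4 are lowest in LV E9, and the LV E10 array with an Egr1 intensity of 7896 has an Etv4 intensity of 39.0.

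Of the 5 calls at E10, 3 lay among the other receptors and receptor-binding proteins. Fgfrl1, a receptor that lacks the kinase domain, was 377, 401 and 469.8 in AVC E10 and 151, 207 and 160.2 in LV E10, a 2.42-fold difference (1.28 ± 0.18 SE, limma, adjusted p = 0.0155). Flrt3, a membrane protein that binds FGF receptors, was 1299, 1383 and 1522 in AVC E10 and 332, 379 and 612 in LV E10, a 3.29-fold difference (1.72 ± 0.28 SE, adjusted p = 0.0230). At E9 the tissues overlapped for Flrt3 (-0.01 ± 0.28 SE), and in the LV it fell by 1.56 ± 0.28 SE on the log2 scale between E9 and E10 (adjusted p = 0.0360). The change in its AVC against LV difference was not called (interaction 1.72 ± 0.39 SE, adjusted p = 0.504). With 1 array left out, the Fgfrl1 call was lost without AVC E10 replicate 2 or 3 (adjusted p = 0.0507 and 0.0701). The Flrt3 call at E10 was lost without any one AVC E10 array and without LV E10 replicate 2 (adjusted p up to 0.0978, without AVC E10 replicate 3), and its fall in the LV was lost in 8 of the 12 cases (up to 0.139, without LV E10 replicate 2).

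Flrt2, of the same family, was higher in the AVC at E10 (1.10 ± 0.21 SE, limma, adjusted p = 0.0369). It also rose between E9 and E10 by 1.27 ± 0.21 SE in the AVC (adjusted p = 0.0457) and by 1.06 ± 0.21 SE in the LV (adjusted p = 0.0421). Of the 15 measured heparan sulphate genes, 13 were above background on all 12 arrays and 1 was called, the cell-surface proteoglycan gene Gpc1. Its intensity was 3656, 4030.5 and 4039.8 in AVC E10 and 1342, 1841 and 1911 in LV E10, 2.33-fold higher in the AVC (1.22 ± 0.17 SE, adjusted p = 0.0138). The ERK phosphatase Dusp7 was the fifth gene called at E10, at 1.41-fold (0.49 ± 0.10 SE, adjusted p = 0.0441). Spry3 was the other gene called higher at E10 in the LV (adjusted p = 0.0416), with 1 LV E10 array and 0 LV E9 arrays above background, so no size is given. With 1 array left out, the Gpc1 call was lost without AVC E10 replicate 3 (adjusted p = 0.0606). The Dusp7 call was lost in 11 of the 12 cases, the Flrt2 calls in 10, 10 and 9, and the Spry3 call in 8, with adjusted p up to 0.151, 0.134, 0.174, 0.136 and 0.143.

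Ligands and transducers gave no calls. Of 20 other measured ligands, 8 were above background on at least 1 array and 1, Fgf13, on all 12, and 0 were called by limma in any of the 5 contrasts (1 or 2 at an unadjusted p under 0.05 in each pairwise contrast). Fgf13 acts inside cells and does not signal through FGF receptors. Its mean intensity was 804 ± 41.0, 825 ± 92.4, 695 ± 243 and 781 ± 126 in AVC E9, LV E9, AVC E10 and then LV E10 (SD, n = 3). Of 11 measured transducers, 5 were above background on all 12 arrays and 0 were called by limma in any contrast (0 to 2 at an unadjusted p under 0.05). The signalling proteins between receptor and nucleus are regulated largely by phosphorylation, which these arrays do not measure.

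**Figure D4:**
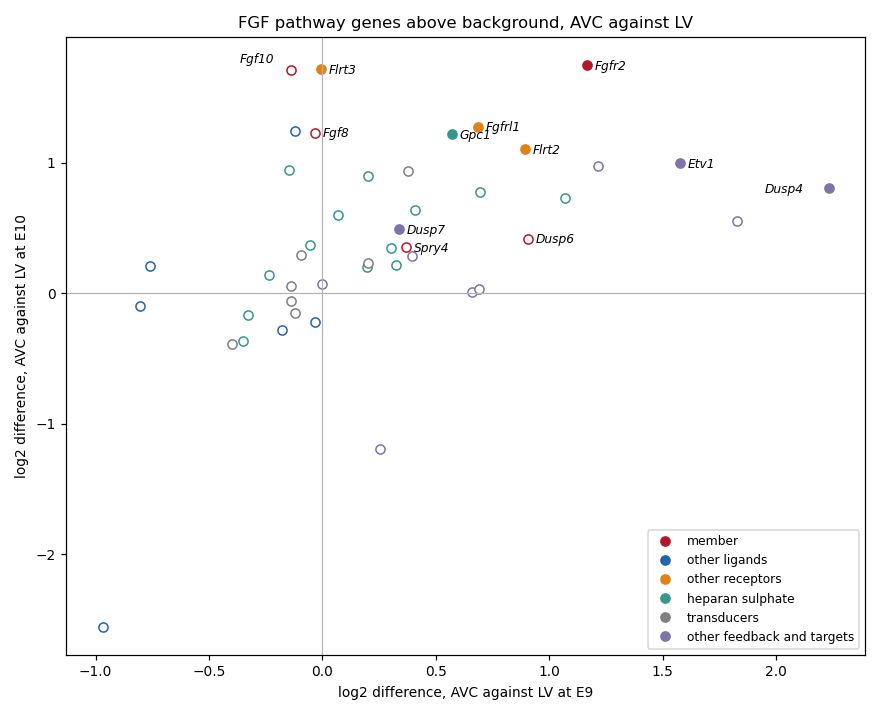
Log2 difference between AVC and LV at E9 (x axis) and at E10 (y axis) for 45 FGF pathway genes detected on every array of one group or more, 5 of them from the main list, with filled symbols for genes called at either age. Dusp4 and Etv1 lie farther to the right than most genes (2.23 and 1.57 at E9), and Flrt3 lies near 0 at E9 and at 1.72 at E10.

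As a description, the genes whose log2 intensity over the 12 arrays was most like that of Fgfr2 were Tgfb2 (Pearson r = 0.971), Dhx57 (0.965) and Furin (0.963), among the 8339 other genes above background on all arrays. For Dusp6 they were Chmp1b (0.955), Tada1 (0.954) and Ndrg2 (0.953). The 12 points share 4 group means and the scaling of each array, and no p-value is attached.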

How the data were processed

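RNA of AVC and LV was extracted with a Zymo Research kit and hybridised as biotinylated cRNA. The values deposited by the authors are bead array intensity on a linear scale, background subtracted (34.7% were below 0) and scaled to 1 mean. Which program made them is not stated in the sources used here. For its own lists the study used GeneSpring GX with a fold and a p threshold, and those lists were not used. Gene symbols came from the platform annotation, where 34885 of 45281 probes had 1 symbol, 18 several and 10378 none. Values under 1 (36.8%) were set to 1 before log2, and differences near that floor depend on it. The 4 groups were fitted together in limma 3.58.1 (R 4.3.3) over all probes (8 residual degrees of freedom), with 5 contrasts and two-sided Benjamini-Hochberg adjusted p-values over 19057 genes, after a test on simulated data. Named beyond the 9 genes were called pathway genes above background on all arrays of a group compared, by size, and the 3 most alike genes. Members and lists were chosen with earlier results of these data known. Promoters were looked up for 17 genes and obtained for 11. Fgf8 and Fgfr1 had no entry, none was obtained for Gpc1, Dusp4 or Spry3, and Spry4 was left out because it lies on chromosome 18. Alternatives were quantile normalization, a floor of 25, log2(value + 50), a background filter, a replicate block, fitting only the groups compared, averaging probes and leaving out arrays. The number of arrays limits the precision.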

Additional observations from a re-analysis of the deposited data

How the results depend on the processing

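Across 20 alternatives, 12 of which left out 1 array, 24 log2 differences were followed. Direction and side of the threshold were kept in 258 of their comparisons with 1 array left out and in 168 of the others. With 1 array left out, the direction reversed in 15, and a call was gained in 5 and lost in 10. In the others these counts were 10, 7 and 2. Most of the differences followed were not called to begin with. The called ones, Fgfr2 at E10 and Fgf8 by age in the LV, each kept the call in 7 of the 12 fits with 1 array left out. Of the 8 genes, 1 was called at E9 with the background filter and without LV E10 replicate 1 and AVC E9 replicate 2 (a pair left out together after seeing the data), and 0 at E10 when probes were averaged. By age, 1 was called in the AVC with log2(value + 50) and with the background filter, while in the LV 0 were called with the floor of 25 and 3 without that pair (Fgf8, Fgf10 and Dusp6). With 1 array left out these counts were 0 to 1, 0 to 1, 0 to 1 and 0 to 3, the 3 without LV E10 replicate 1. The filter gives no value for Fgfr1, Fgfr3 and Spry2, and fitting only the groups compared gives no interaction.

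For the other pathway genes, the count of 3 at E9 became 1 with the floor of 25, with only the groups compared and with averaged probes, 4 with the filter and 2 under the other settings, quantile normalization included (0 to 3 with 1 array left out). The 5 at E10 became 2 after quantile normalization, 0 with only the groups compared, 3 with averaged probes and 6 without the pair (0 to 4, with 0 without AVC E10 replicate 3). The 1 by age in the AVC became 0 after quantile normalization and with only the groups compared, and 3 with the filter and without the pair (0 to 5, with 5 without AVC E10 replicate 1). The 3 by age in the LV became 0 with the floor of 25 and with only the groups compared, 7 with the filter and 14 without the pair (0 to 9, with 9 without LV E10 replicate 1). The interaction called 0 to 2, with 2 without AVC E10 replicate 1. Single calls differed in how often they passed, from 18 of 20 alternatives for Gpc1 and 16 for Fgfrl1 through 14 for Dusp4 and for Flrt3 at E10 to 4 for Etv1 and 3 for Dusp7. Quantile normalization moved the median of genes above background from 0.16 to 0.01 at E10, and the share of calls that were higher in the AVC from 83.6% to 65.6% at E9 and from 89.5% to 69.2% at E10.

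Small differences changed sign. Fgf10 at E9 was 0.040 with averaged probes and 0.16 without the pair (-0.43 to 0.16 with 1 array left out). Fgfr2 by age in the AVC was -0.13 and -0.29 under the same settings (-0.29 to 0.22). Fgf8 at E9 ran from -0.25 to 0.34 and the Spry4 interaction from -1.30 to 0.71, with -1.56 without the pair. Spry4 at E10 was -0.39 with the floor of 25, -0.073 with log2(value + 50) and -0.93 without the pair (-0.93 to 1.08), and by age in the LV 0.40, 0.020 and 0.74 (-1.27 to 0.74). The cause was not tested. Over all genes, 59 to 422 were called at E9, 97 to 730 at E10, 25 to 465 by age in the AVC and 54 to 2630 by age in the LV with 1 array left out.

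Replicate numbers were not taken as pairs. Correlations of same-numbered deviations ran from -0.365 to 0.524, 9 of 18 were over 0.1, and 8 of 12 arrays correlated best with their own number, a hint from the data and not from the design. With a replicate block 1 of the 8 genes was called at E9 (Fgfr2, adjusted p = 0.0371) and 0 other pathway genes by age in the AVC, and Etv1 at E9 (adjusted p = 0.0852) and Flrt2 at E10 and by age in the AVC and LV (0.0767, 0.0930 and 0.0626) were not called. Signals near the background limit leave Fgfr1, Fgfr3, Spry2 and Spry4 without usable differences.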
